A study of Mus musculus with 33 samples.

Results

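The 10 genes described here are the neutrophil-attracting CXC chemokines Cxcl1, Cxcl2, Cxcl3 and Cxcl5, the receptors Cxcr2, Csf3r and Clec4d, the calcium-binding proteins S100a8 and S100a9, and the growth factor Csf1. They were chosen by gene symbol as 10 of the 48795 genes of the deposited table, and each symbol matched 1 gene. Of the 10, 8 had a level of at least 0.5 FPKM (fragments per kilobase of exon, scaled to the total fragments of the tumour) in at least 5 tumours and entered the test across all genes. Cxcl3 and Cxcr2 did not reach that level in enough tumours and are given from a fit with no filter.

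The tumours grew under the skin on both flanks of male FVB mice injected with Myc-CaP, a MYC-driven mouse prostate cancer line. Mice received ESK981 at 15 mg/kg (8 tumours), ESK981 at the same dose with an antibody against PD-1, called the combination here (8 tumours), the PD-1 antibody (7 tumours) or vehicle (10 tumours), with 5 mice per group. The protocol names gavage of ESK981 or vehicle on 5 days a week and peritoneal injection of the PD-1 antibody or an isotype control, 200 µg per mouse, 3 times a week. Dosing started once tumours measured 50 mm3 and lasted 3 weeks. All groups carried the same 1 cell line in the same host strain, and the age of the mice is not given in the sources used here. ESK981 blocks several tyrosine kinases and the lipid kinase PIKfyve, and PD-1 is the checkpoint receptor of T cells. The series concerns PIKfyve inhibition with checkpoint blockade, and the comparisons here ask how each treatment changed the level of these neutrophil genes. A tumour's name gives its group, its mouse (1 to 5, a number that pairs nothing across groups) and its flank (L or R).

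Neutrophils are short-lived granulocytes that leave the bone marrow under the growth factor G-CSF, whose receptor is Csf3r. They follow CXC chemokines with an ELR triplet, among them Cxcl1, Cxcl2, Cxcl3 and Cxcl5, through the receptor Cxcr2. S100a8 and S100a9 form the heterodimer calprotectin, an abundant protein of the neutrophil cytoplasm. Clec4d, a C-type lectin receptor of myeloid cells, and Csf1, the growth factor of macrophages that signals through Csf1r, are not restricted to neutrophils.

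On GRCm38 (GENCODE M21), the 4 chemokines lie in 1 cluster on chromosome 5, all on the plus strand: Cxcl5 from 90759360 to 90761624, Cxcl3 from 90786103 to 90789600, Cxcl1 from 90891241 to 90893115 and Cxcl2 from 90903871 to 90905938. S100a8 (plus strand, 90668978 to 90670035) and S100a9 (minus strand, 90692632 to 90695721) are neighbours on chromosome 3, which also holds Csf1 (minus strand, 107741048 to 107760469). Cxcr2 is on chromosome 1 (74153989 to 74161246), Csf3r on chromosome 4 (126024550 to 126044440) and Clec4d on chromosome 6 (123262111 to 123275265), all on the plus strand. All 10 are protein-coding, and FPKM are per length of all exons.

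Promoters were taken from RefSeq (GRCm38.p6), 250 bases before to 50 after the start, for 9 of the 10 genes. Cxcl1, Cxcl2 and Cxcl3 are shown because these chemokines share a run of 10 bases near the start. The windows, all on the plus strand and written 5′ to 3′, are chr5:90890995-90891294, chr5:90903649-90903948 and chr5:90785851-90786150. Capitals mark matches of an NF-kB pattern (GGG, any 5 bases, CC) on either strand, and overlapping matches run together.
Cxcl1: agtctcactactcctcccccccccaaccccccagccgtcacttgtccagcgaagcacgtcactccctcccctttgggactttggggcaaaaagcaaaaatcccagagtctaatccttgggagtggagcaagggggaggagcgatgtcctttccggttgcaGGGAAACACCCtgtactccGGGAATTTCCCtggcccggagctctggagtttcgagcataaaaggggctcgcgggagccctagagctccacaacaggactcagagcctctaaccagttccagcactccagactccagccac
Cxcl2: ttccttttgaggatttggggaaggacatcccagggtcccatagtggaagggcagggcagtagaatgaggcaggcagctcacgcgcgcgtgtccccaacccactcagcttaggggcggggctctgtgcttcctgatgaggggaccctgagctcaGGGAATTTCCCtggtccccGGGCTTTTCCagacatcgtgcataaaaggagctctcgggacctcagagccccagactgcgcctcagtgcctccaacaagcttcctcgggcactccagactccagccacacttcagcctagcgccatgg
Cxcl3: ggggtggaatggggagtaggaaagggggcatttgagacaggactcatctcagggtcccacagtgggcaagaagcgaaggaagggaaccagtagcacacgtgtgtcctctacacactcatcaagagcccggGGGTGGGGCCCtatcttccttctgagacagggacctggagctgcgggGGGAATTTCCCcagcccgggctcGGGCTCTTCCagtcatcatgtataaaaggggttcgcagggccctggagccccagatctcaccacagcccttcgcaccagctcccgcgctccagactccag
The run GGGAATTTCC stood in each of these 3 promoters, beginning at position −71 in Cxcl1, −97 in Cxcl2 and −73 in Cxcl3, where 0 is the start. It was found on either strand in 0.0883% of the 32851 promoters in the table, and the looser NF-kB pattern in 50.8%. No match of the AP-1 pattern TGANTCA, which 7.81% of promoters held, was in the windows of the 9 genes.

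The promoters of Csf3r and Clec4d are shown because the levels of these receptors varied together across mice (r = 0.88 over 20 mouse means). Their plus-strand windows are chr4:126024409-126024708 and chr6:123261857-123262156, and capitals mark GAGGAA, the core of sites bound by the myeloid factor PU.1, or its reverse complement.
Csf3r: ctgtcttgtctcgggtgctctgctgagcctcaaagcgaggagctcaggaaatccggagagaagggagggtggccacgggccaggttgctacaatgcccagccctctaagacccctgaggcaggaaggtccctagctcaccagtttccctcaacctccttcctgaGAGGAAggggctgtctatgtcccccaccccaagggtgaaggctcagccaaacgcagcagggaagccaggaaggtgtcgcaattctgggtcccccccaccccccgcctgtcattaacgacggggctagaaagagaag
Clec4d: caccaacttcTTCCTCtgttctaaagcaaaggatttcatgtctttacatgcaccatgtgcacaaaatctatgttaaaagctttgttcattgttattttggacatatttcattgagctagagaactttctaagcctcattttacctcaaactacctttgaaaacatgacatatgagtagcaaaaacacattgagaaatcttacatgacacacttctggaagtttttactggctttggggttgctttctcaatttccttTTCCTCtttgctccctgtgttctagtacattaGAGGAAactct
Csf3r held 1 match and Clec4d 3, and 28.3% of all promoters held at least 1. The C/EBP pattern TTNNNNAA, present in 61.5% of promoters, matched 4 times in Clec4d and was not in the Csf3r window. These matches describe the letters of the windows only.

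Total fragments per tumour were 1.81e+07 to 3.24e+07 with ESK981, 1.78e+07 to 2.48e+07 with the combination, 1.13e+07 to 2.42e+07 with anti-PD-1 and 9.90e+06 to 1.84e+07 with vehicle. RNA composition differed too: the summed FPKM of the 13 mitochondrially encoded protein genes was 6406 ± 660 in ESK981 mice, 10858 ± 4026 in combination mice, 13729 ± 9716 in anti-PD-1 mice and 26353 ± 17791 in vehicle mice (SD, n = 5 each). The summed FPKM of 3 genes on ribosomal RNA sequence was 31050 ± 18084 in ESK981 mice and 176044 ± 35810 in vehicle mice. It was 139593 ± 204310 in combination mice and 76762 ± 18505 in anti-PD-1 mice. The combination mice had a median of 41997 and a highest value of 500377. Per the run names in the labels, 9 vehicle tumours filled a flow cell that held no treated tumour, and vehicle 5R ran with the treated ones on the other. The part of these differences in the results below was not tested, beyond the fit with a flow cell term given with them.

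Granule and surface markers of neutrophils were low in most tumours. Ly6g, a surface antigen of mouse neutrophils, was above 0 in 2 of 33 tumours and never above 0.0579 FPKM. The granule genes Mpo, Ngp, Camp and Ltf together with Ly6g gave 83 fragments over the 8 ESK981 tumours, 32 over the combination tumours, 4 over the anti-PD-1 tumours and 7 over the vehicle tumours. The median per tumour was 2.5 fragments with ESK981, 2 with the combination, 1 with anti-PD-1 and 0.5 with vehicle. Single tumours supplied most of these, with 56 fragments in ESK981 1R and 16 in combination 4R. These fragment sums are not scaled for depth or tumour number. The summed FPKM of all 12 listed neutrophil markers, Csf3r, Cxcr2, S100a8 and S100a9 among them, was lower on average with ESK981 than with vehicle. It was 2.23 ± 1.7 in ESK981 mice, 3.35 ± 2.15 in combination mice, 2.34 ± 0.337 in anti-PD-1 mice and 4.14 ± 2.78 in vehicle mice (SD). Retnlg, another neutrophil gene, reached at most 0.406 FPKM, Elane at most 0.115 FPKM and the collagenase Mmp8 at most 0.801 FPKM. The chemokine receptor gene Cxcr1 reached 0.0356 FPKM and the cytokine gene Il17a was listed at 0 in all 33 tumours. The 10 genes are therefore named here as neutrophil-associated genes, and their fragments are not assigned to neutrophils. In such bulk samples, fewer cells of a type and less RNA per cell cannot be told apart.

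Among the receptors, Clec4d was the most abundant and the one with the largest ESK981 difference. Its mouse means were 1.49, 1.48, 0.667, 1.40 and 1.5 FPKM in ESK981 mice 1 to 5, 3.24, 8.87, 9.84, 2.57 and 1.29 FPKM in combination mice, 2.44, 3.02, 3.13, 3.38 and 4.55 FPKM in anti-PD-1 mice, and 7.34, 7.99, 9.10, 1.82 and 2.78 FPKM in vehicle mice. Every ESK981 mouse lay below every anti-PD-1 and every vehicle mouse. Such a lack of overlap, in either direction, held for 6.85% of all genes tested against anti-PD-1 and for 15.5% against vehicle. The combination mice spanned nearly the whole range, and 1 of them, mouse 5, fell among the ESK981 mice. Its only tumour, 5R, was among those of extreme RNA composition named below. Clec4d averaged 1.31 ± 0.36 FPKM with ESK981 and 5.81 ± 3.28 FPKM with vehicle (SD, n = 5 mice each) and fell 2.92-fold (log2 fold change −1.55 ± 0.41 (SE), limma adjusted p = 0.0202).

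Csf3r, the G-CSF receptor, was also lowest in the ESK981 group. Its mouse means were 0.766, 0.734, 0.558, 0.33 and 0.475 FPKM in ESK981 mice, 0.702, 2.3, 2.33, 0.831 and 0.529 FPKM in combination mice, 1.65, 1.22, 1.72, 1.41 and 1.51 FPKM in anti-PD-1 mice, and 1.94, 2.21, 3.11, 1.16 and 0.576 FPKM in vehicle mice. The ESK981 mice were all below the anti-PD-1 mice, where 6.85% of all genes tested did not overlap in either direction. Vehicle mouse 5 fell within the ESK981 range. Csf3r averaged 0.573 ± 0.182 FPKM with ESK981 and 1.8 ± 0.978 FPKM with vehicle and fell 1.95-fold (log2 fold change −0.97 ± 0.30, limma adjusted p = 0.0352). Csf3, the gene of its ligand G-CSF, did not pass the filter, with at most 0.638 FPKM in any tumour.

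Csf1 was the most abundant of the 10 genes and had the most fragments, 143 to 926 per tumour. Its mouse means were 2.45, 1.45, 4.06, 2.32 and 3.35 FPKM in ESK981 mice, 4.07, 6.41, 5.45, 3.06 and 3.12 FPKM in combination mice, 6.85, 7.38, 5.88, 5.26 and 4.06 FPKM in anti-PD-1 mice, and 5.19, 7.74, 5.94, 6.25 and 3.98 FPKM in vehicle mice. The ESK981 and vehicle mice met only at the edges of their ranges: ESK981 mouse 3 lay just above vehicle mouse 5. Csf1 averaged 2.73 ± 1 FPKM with ESK981 and 5.82 ± 1.38 FPKM with vehicle and fell 1.94-fold (log2 fold change −0.96 ± 0.23, limma adjusted p = 0.0119). Its receptor gene Csf1r averaged 4.17 ± 1.18 FPKM with ESK981 and 8.97 ± 3.16 FPKM with vehicle, and fell 1.95-fold (log2 fold change −0.96 ± 0.32, adjusted p = 0.0497).

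**Figure D1:**
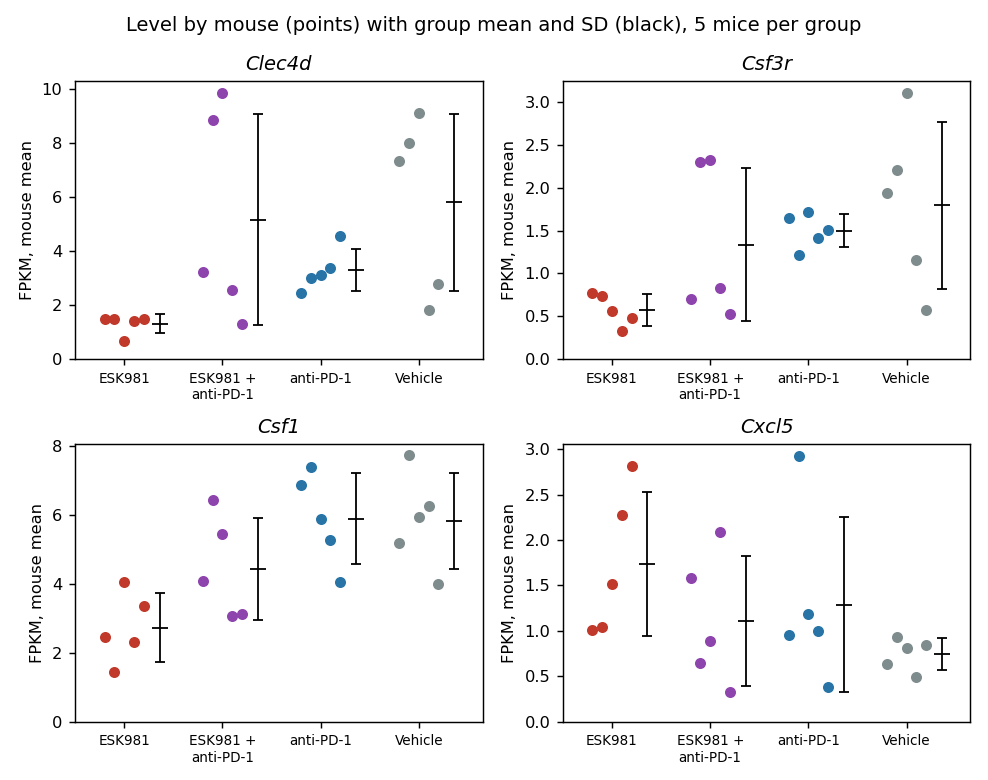
Level of Clec4d, Csf3r, Csf1 and Cxcl5 in FPKM (linear axes from 0) by mouse, with points for the 5 mice of each group and black marks for the group mean and SD. ESK981 mice sit at 0.667 to 1.5 FPKM for Clec4d, below all vehicle mice (1.82 to 9.10), and at 1.01 to 2.82 FPKM for Cxcl5, above all vehicle mice (0.495 to 0.934). Such a lack of overlap, in either direction, held for 15.5% of all genes tested.

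Thus 3 of the 10 genes were called in ESK981 against vehicle, all lower, where 14.4% of the 15846 genes tested were called in either direction and 5.43% were called lower. The median log2 fold change was −0.40 over the 8 genes tested and 0.11 over all genes tested, and median-of-ratios scaling moved the median over all genes to −0.00030. All 3 calls were lost in a fit over single tumours with a flow cell term, for which vehicle 5R is the only link: the log2 fold change was −1.28 ± 0.86 for Clec4d (adjusted p = 0.238), −0.03 ± 0.47 for Csf1 (adjusted p = 0.965) and 0.15 ± 0.55 for Csf3r (adjusted p = 0.839). Vehicle 5R had the fewest fragments of all tumours (9.90e+06) and was among the tumours of extreme RNA composition named below. It had 3.22 FPKM of Clec4d, 0.364 FPKM of Csf3r and 2.73 FPKM of Csf1. Over all genes, the same fit gave fewer lower and more higher calls, as listed below. The part of this shift in the lost calls was not tested. The calls of Clec4d and Csf3r also depended on single mice. Clec4d had an adjusted limma p of 0.0594 without vehicle mouse 2 and 0.0588 without vehicle mouse 3. Csf3r lost its call without ESK981 mouse 1 (adjusted limma p = 0.0530), 2 (0.0502), 4 (0.0843) or 5 (0.0717), and without vehicle mouse 1 (0.0581), 2 (0.0864) or 3 (0.0977). With right-flank tumours alone, Csf1 (adjusted limma p = 0.0970) and Csf3r (0.172) lost their calls.

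The ESK981 and anti-PD-1 tumours shared a flow cell, which gives a comparison without that difference, added after the data were seen. The last number of the run names, taken as the lane, was 3 or 4 for ESK981 and 6 for anti-PD-1 tumours. Lane and group therefore cannot be told apart here. Against anti-PD-1, Csf1 had a log2 fold change of −1.01 ± 0.23 in ESK981 mice (limma adjusted p = 0.0786), Clec4d −1.07 ± 0.41 (adjusted p = 0.241) and Csf3r −0.88 ± 0.30 (adjusted p = 0.167). None of the 10 genes passed, though these 3 had an unadjusted limma p under 0.05, and 0.00631% of all genes were called. For each of these 3 genes, the 5 ESK981 mice lay below the 5 anti-PD-1 mice without overlap on the log2 scale (for Csf1 the nearest mice of both groups were at 4.06 FPKM), as 6.85% of all genes tested did not overlap in either direction. When only these 2 groups were fitted, all 3 passed (adjusted p = 0.0269 for Csf1, 0.00619 for Clec4d and 0.00453 for Csf3r), where 4.32% of all genes were called in either direction and 4.02% were called lower.

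Macrophage markers were also lower in the same comparison with vehicle, but the summed level of monocyte markers was not. The summed FPKM of 10 macrophage markers, all detected, was 89.3 ± 18.6 in ESK981 mice (67.2 to 107) and 173 ± 47.2 in vehicle mice (106 to 227). Of the 10, 5 were called lower and none higher, where 5.43% of all genes tested were called lower. Over 8 monocyte markers the sums were 271 ± 45.7 in ESK981 mice and 236 ± 29.2 in vehicle mice, with 2 called lower and none higher. Of these 8, 5 had a log2 fold change below 0, and the median was −0.48. Most single monocyte markers therefore stood lower with ESK981, though their sum did not. The part of macrophages in the lower Clec4d, Csf3r and Csf1 was not tested.

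Of the chemokines, Cxcl5 stood higher in every ESK981 mouse than in any vehicle mouse. Its mouse means were 1.01, 1.04, 1.52, 2.28 and 2.82 FPKM in ESK981 mice, 1.58, 0.644, 0.892, 2.09 and 0.332 FPKM in combination mice, 0.95, 2.93, 1.19, 1.0 and 0.377 FPKM in anti-PD-1 mice, and 0.631, 0.934, 0.815, 0.495 and 0.848 FPKM in vehicle mice. Such a lack of overlap between ESK981 and vehicle mice, in either direction, held for 15.5% of all genes tested. Cxcl5 averaged 1.74 ± 0.795 FPKM with ESK981 and 0.745 ± 0.178 FPKM with vehicle, and the log2 fold change of 0.84 ± 0.32 did not pass (limma adjusted p = 0.0723). It passed in 4 of 34 alternative settings, among them a fit of these 2 groups alone (adjusted p = 0.0227, with 19.8% of all genes called). The vehicle mice were the least spread of the 4 groups, and anti-PD-1 mouse 2 and ESK981 mouse 5 had the highest levels.

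Cxcl1, the main mouse ligand of Cxcr2 together with Cxcl2, had 5 to 77 fragments per tumour. Its mouse means were 0.976, 1.28, 0.219, 0.692 and 0.77 FPKM in ESK981 mice, 0.395, 0.553, 0.62, 0.764 and 0.633 FPKM in combination mice, 0.629, 0.72, 0.66, 0.478 and 0.243 FPKM in anti-PD-1 mice, and 0.424, 0.893, 0.217, 0.435 and 0.448 FPKM in vehicle mice. All groups overlapped, and each of ESK981, anti-PD-1 and vehicle held a mouse at 0.217 to 0.243 FPKM. The log2 fold change between ESK981 and vehicle was 0.39 ± 0.21 (limma adjusted p = 0.195).

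Cxcl2 was lower still, at 3 to 37 fragments per tumour. It averaged 0.328 ± 0.156 FPKM with ESK981, 0.349 ± 0.158 FPKM with the combination, 0.229 ± 0.055 FPKM with anti-PD-1 and 0.415 ± 0.192 FPKM with vehicle (SD, n = 5 each). The anti-PD-1 mice were the tightest group (0.176 to 0.319 FPKM), and the vehicle mice split into 3 at 0.526 to 0.603 FPKM and the other two at 0.175 and 0.244 FPKM. The log2 fold change was −0.12 ± 0.17 for ESK981 and −0.28 ± 0.17 for anti-PD-1, each against vehicle (limma adjusted p = 0.665 and 0.486). Neither Cxcl1 nor Cxcl2 was called in the fit of all mice. Without ESK981 mouse 3, Cxcl1 was called higher with ESK981 than with vehicle (log2 fold change 0.59 ± 0.18, limma adjusted p = 0.0350).

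Cxcl3 had at most 3 fragments in any tumour and 37 over all 33, and 13 tumours were at 0. By group these were 12 fragments with ESK981, 10 with the combination, 6 with anti-PD-1 and 9 with vehicle. Such sums are not scaled for depth or tumour number. Mean Cxcl3 was 0.0164 FPKM with ESK981, 0.017 FPKM with the combination, 0.0125 FPKM with anti-PD-1 and 0.02 FPKM with vehicle. No difference was detectable at this depth. Cxcr2, the receptor of these chemokines, had at most 15 fragments in a tumour and 109 over all, with 29 from ESK981, 37 from combination, 24 from anti-PD-1 and 19 from vehicle tumours. Mean Cxcr2 was 0.0396 FPKM with ESK981, 0.0582 FPKM with the combination, 0.057 FPKM with anti-PD-1 and 0.0489 FPKM with vehicle. Combination mouse 4 supplied 26 of its group's 37 Cxcr2 fragments, and vehicle mouse 3 supplied 11 of the 19. In the fit with no filter, the log2 fold change between ESK981 and vehicle was −0.01 ± 0.02 for Cxcl3 and −0.01 ± 0.08 for Cxcr2 (exact two-sided permutation p = 0.69 and 0.921, n = 5 mice each, smallest possible p 0.00794). Both estimates are held near 0 by the 0.5 FPKM added before taking logs.

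**Figure D2:**
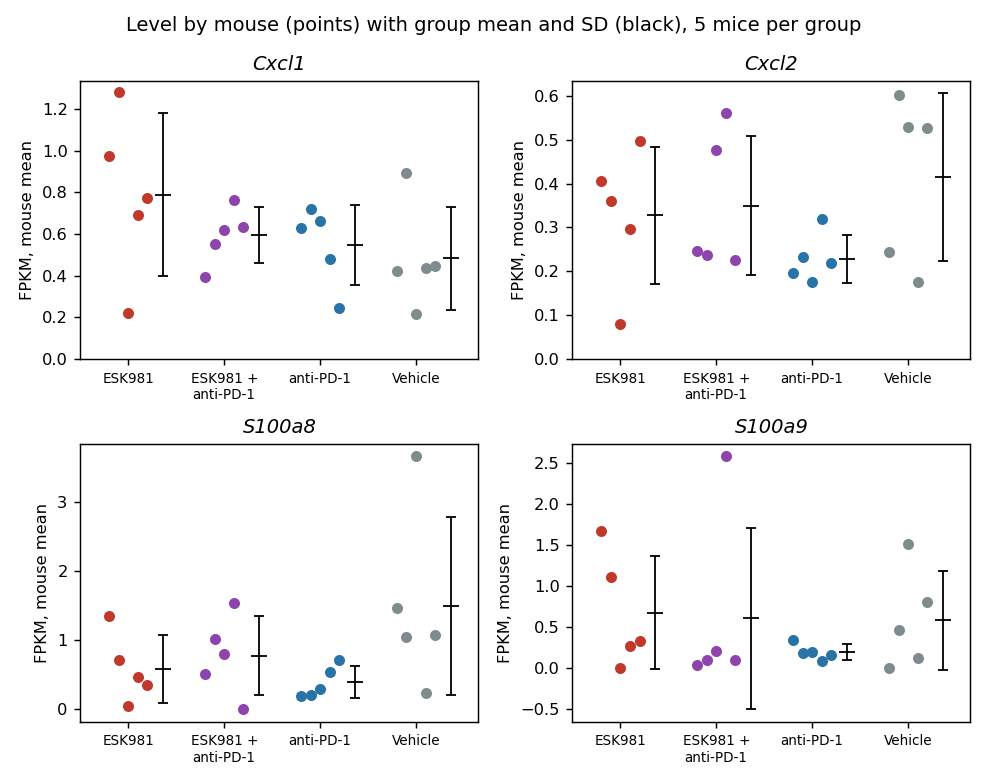
Level of Cxcl1, Cxcl2, S100a8 and S100a9 in FPKM (linear axes) by mouse, with points for the 5 mice of each group and black marks for the group mean and SD. The groups overlap for all 4 genes, and single mice stand out, such as combination mouse 4 at 2.58 FPKM of S100a9 and vehicle mouse 3 at 3.66 FPKM of S100a8.

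S100a8 and S100a9 were low and uneven. S100a8 mouse means were 1.35, 0.716, 0.0398, 0.468 and 0.352 FPKM in ESK981 mice, 0.504, 1.02, 0.798, 1.54 and 0 FPKM in combination mice, 0.196, 0.209, 0.292, 0.537 and 0.715 FPKM in anti-PD-1 mice, and 1.46, 1.05, 3.66, 0.239 and 1.07 FPKM in vehicle mice. Vehicle mouse 3 was far above the rest, and all groups overlapped. The log2 fold change of S100a8 was −0.69 ± 0.38 for ESK981 and −0.82 ± 0.38 for anti-PD-1, each against vehicle (limma adjusted p = 0.223 and 0.361).

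S100a9 mouse means were 1.67, 1.11, 0, 0.276 and 0.333 FPKM in ESK981 mice, 0.0399, 0.105, 0.214, 2.58 and 0.0988 FPKM in combination mice, 0.348, 0.185, 0.194, 0.0846 and 0.158 FPKM in anti-PD-1 mice, and 0, 0.469, 1.51, 0.125 and 0.81 FPKM in vehicle mice. Combination mouse 4, ESK981 mice 1 and 2 and vehicle mouse 3 were the highest, and every group held a mouse at or below 0.125 FPKM. The log2 fold change of S100a9 between ESK981 and vehicle was 0.14 ± 0.40 (limma adjusted p = 0.848).

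The proteins S100a8 and S100a9 are partners, but their transcripts were not found in a constant ratio. Over all tumours, 377 fragments fell on S100a8 and 200 on S100a9, so that S100a8 made up 65.3% (61.3% to 69.2%). Its share was 53.1% (45.5% to 60.6%) with ESK981, 59.1% (51.2% to 66.7%) with the combination, 75% (61.1% to 86%) with anti-PD-1 and 79.9% (73.4% to 85.4%) with vehicle. These are exact Clopper-Pearson 95% intervals on pooled fragments, which cover counting error only and not the spread between mice. The shares are of fragments and are not scaled for exon length, 694 bases for S100a8 and 522 for S100a9. Mouse 4 supplied most of the combination fragments, and without it the combination share was 86.2% (74.6% to 93.9%) of 58 fragments. Leaving out each mouse of a group in turn, which was added after the data were seen, gave 51.8% to 55.7% with ESK981, 54.1% to 86.2% with the combination, 68.4% to 80% with anti-PD-1 and 75.3% to 82.5% with vehicle.

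Single tumours lay at both ends. ESK981 1R had 57 S100a8 and 54 S100a9 fragments (S100a8 share 51.4%, interval 41.7% to 61%), combination 4L had 18 of each, and combination 4R had 29 and 41 (41.4%, interval 29.8% to 53.8%). In these tumours the 2 counts were near equal before scaling for exon length. In FPKM, ESK981 1R had 2.53 of S100a8 and 3.19 of S100a9. Combination 1R had 11 S100a8 fragments and 0 of S100a9, and combination 2R had 13 and 1. Vehicle 1R had 32 and 0, which bounds its S100a8 share at 89.1% or more, and vehicle 3L had 33 and 2. In these 4 tumours few or no S100a9 fragments were found. With so few fragments, the S100a8 share interval began at 71.5% in combination 1R and 66.1% in combination 2R. The intervals of combination 4R and vehicle 1R do not meet, but these 2 tumours were picked from the ends. Of the 17 tumours with at least 10 fragments on the pair, 5 had an S100a8 share of 90% or more and 5 of 60% or less. ESK981 1R and combination 4R also held the most fragments of the 5 granule and surface markers given above (56 and 16) and, with combination 4L and vehicle 3R, the most Cxcr2 fragments (12, 15, 11 and 10).

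**Figure D3:**
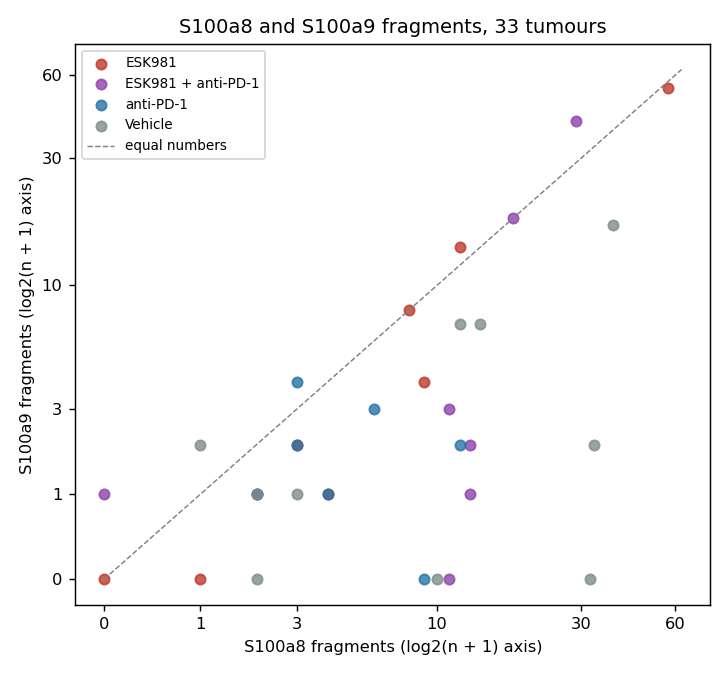
Fragments of S100a8 (x axis) and S100a9 (y axis) in each of the 33 tumours on log2(n + 1) axes labelled in fragments, with groups by colour and a dashed line of equal numbers. ESK981 1R (57 and 54) and combination 4R (29 and 41) lie near the line, while vehicle 1R (32 and 0) and vehicle 3L (33 and 2) lie at the lower right.

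With the combination or anti-PD-1, none of the 10 genes was called against vehicle, where 0.606% and 0.783% of all genes tested were called. The combination log2 fold change against vehicle ran from −0.44 ± 0.38 for S100a8 to 0.31 ± 0.32 for Cxcl5 over the 8 genes tested, with a limma adjusted p of 0.576 or more. Without combination 5R, anti-PD-1 4R and vehicle 5R, this fold change was 0.07 for S100a8 (limma adjusted p = 0.945). For Clec4d it went from −0.25 to 0.10 (limma adjusted p = 0.912). For anti-PD-1 it ran from −0.82 ± 0.38 for S100a8 to 0.42 ± 0.32 for Cxcl5, with an adjusted p of 0.361 or more. At an unadjusted p under 0.05, S100a8 with anti-PD-1 (p = 0.0438) was the only one of the 10 genes in these 2 comparisons.

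Between the combination and ESK981, Clec4d had the largest difference. It averaged 5.16 ± 3.91 FPKM with the combination and 1.31 ± 0.36 FPKM with ESK981 (log2 fold change 1.29 ± 0.41, unadjusted limma p = 0.00517), which did not pass over all genes (adjusted p = 0.507). Combination mice 2 and 3 were at 8.87 and 9.84 FPKM, and combination mouse 5, at 1.29 FPKM, lay inside the ESK981 range of 0.667 to 1.5 FPKM. The only tumour of mouse 5 was 5R, of extreme RNA composition. Csf1 and Csf3r had log2 fold changes of 0.63 ± 0.23 and 0.63 ± 0.30 (adjusted p = 0.579 and 0.638), and these 3 genes had an unadjusted p under 0.05. No gene of all those tested was called in this comparison (0%), while 1226 had an unadjusted p under 0.05.

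The interaction compares the ESK981 difference in mice given the antibody with that in mice not given it. It was 1.77 ± 0.59 on the log2 scale for Clec4d (limma adjusted p = 0.165) and −0.95 ± 0.45 for Cxcl5 (adjusted p = 0.265), and none of the 10 genes was called (0.0252% of all genes). These 2 had an unadjusted p under 0.05 (0.00653 and 0.0443). A different effect of ESK981 on these genes in the presence of the antibody was therefore not shown. Against anti-PD-1, the combination gave log2 fold changes of −0.38 ± 0.23 for Csf1 to 0.38 ± 0.38 for S100a8, with no call and none of the 10 genes at an unadjusted p under 0.05 (0% of all genes called, 942 at an unadjusted p under 0.05).

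**Figure D4:**
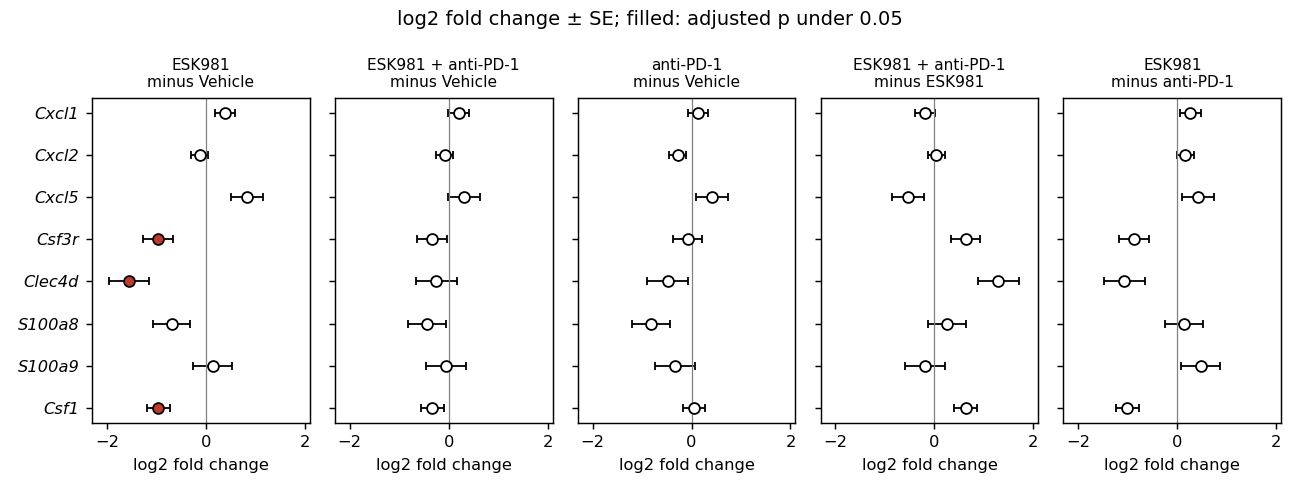
Log2 fold change on the log2(FPKM + 0.5) scale with its SE for the 8 genes tested in 5 comparisons, with filled points where the limma adjusted p is under 0.05. The filled points are Csf3r (−0.97), Clec4d (−1.55) and Csf1 (−0.96) in ESK981 minus vehicle; the panels share vehicle or ESK981 mice and are not independent.

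The genes varied together in 2 overlapping sets. Over the 20 mouse means, 7 of 28 pairs of the 8 genes passed by Pearson's r (Benjamini-Hochberg adjusted permutation p under 0.05), all positive. Csf3r and Clec4d were the closest, with r = 0.88 and rho = 0.89 (adjusted permutation p = 0.00028 each, from the smallest p that 100000 resamples can give, 1e-05). Without the 2 mice farthest from the median of Csf3r, r was 0.87, and for deviations from the group means it was 0.85. In each pair the 2 farthest mice were chosen by 1 gene only, the earlier in the opening list. Mice extreme only in the other gene stay in. Mice high for their group in one receptor tended to be high in the other.

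Csf1 was related to Csf3r (r = 0.72, rho = 0.73, adjusted permutation p = 0.00476 and 0.00602) and to Clec4d (r = 0.61, rho = 0.64, adjusted permutation p = 0.0186 and 0.0172). Without the 2 farthest mice these were r = 0.70 and 0.59. For deviations from the group means they were 0.48 and 0.34, so part of both relations lay between the groups. Clec4d also went with S100a8 (r = 0.65, rho = 0.61, adjusted permutation p = 0.00896 and 0.0244, r = 0.67 without the 2 farthest), but for Clec4d and S100a9 r was −0.03 (permutation p = 0.911).

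In the second set, Cxcl2 went with S100a9 (r = 0.68, rho = 0.66, adjusted permutation p = 0.00625 and 0.0136) and with S100a8 (r = 0.67, rho = 0.72, adjusted permutation p = 0.00651 and 0.00663). Without the 2 farthest mice r was 0.67 and 0.62. These 2 relations hardly changed for deviations from the group means (r = 0.68 and 0.62). S100a8 and S100a9 had r = 0.59 (adjusted permutation p = 0.0308), but rho = 0.46 did not pass (adjusted permutation p = 0.125). Their r was 0.52 without the 2 mice farthest in S100a8, which left in combination mouse 4, the highest in S100a9. Cxcl1 and S100a9 passed by rho (0.59, adjusted permutation p = 0.0314) but not by r (0.44, adjusted permutation p = 0.15), and r was 0.56 without the 2 farthest mice. Cxcr2 and S100a9, in the family of all 45 pairs, had r = 0.68 (adjusted permutation p = 0.0167) and rho = 0.51 (adjusted permutation p = 0.129), and r was 0.24 without the 2 farthest mice, so that relation rests on those mice. The mice share depth and flow cell differences, whose part in these relations was not tested.

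**Figure D5:**
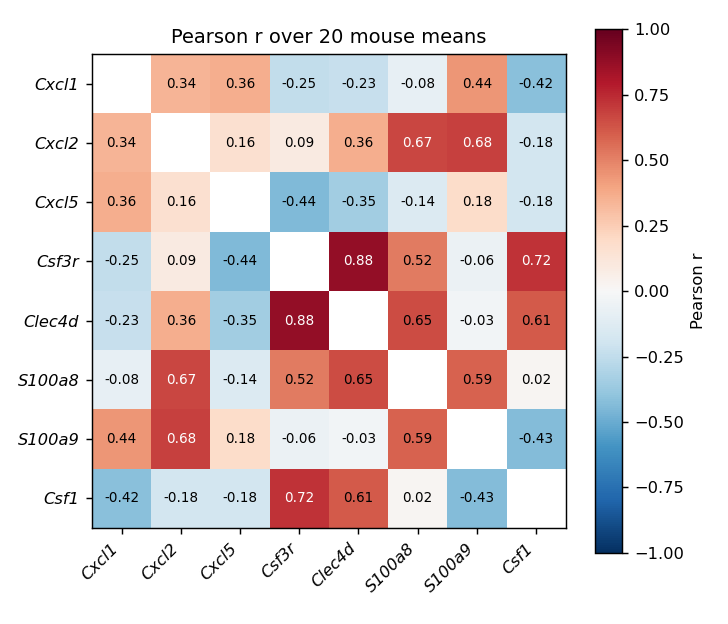
Pearson r between the 8 genes tested over 20 mouse means of log2(FPKM + 0.5), on a colour scale from −1 (blue) to 1 (red). Csf3r, Clec4d and Csf1 form 1 positive group (0.61 to 0.88), and Cxcl2, S100a8 and S100a9 another (0.59 to 0.68).

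The genes most like each of these genes over the same 20 mouse means, by Pearson r, differed from gene to gene. For Csf3r they were Csf2rb2 (0.98), Pid1 (0.98) and Dock11 (0.97), and for Clec4d the lectin receptor Clec4n (0.96), the formyl peptide receptor Fpr2 (0.95) and Mgst1 (0.94). Csf1 was closest to Unc13d and Fgd3 (0.93 each) and Ch25h (0.91), and Cxcl5 to Map4k3 (0.93), Polk (0.92) and Bdnf (0.91). S100a8 was closest to Pet100 (0.81), Cstb (0.79) and the ferritin gene Fth1 (0.79), whereas S100a9 was closest to the immunoglobulin segments Ighv2-9-1 (0.76) and Ighv9-3 (0.70) and then to Cxcl2 (0.68). Cxcl1 and Cxcl2 had no gene above 0.73: Zc3h6, Mgp and Chad (0.73, 0.72 and 0.71) and Sdpr, Iglc3 and Slpi (0.73, 0.72 and 0.71). These values were picked as the highest among all genes tested and carry no test.

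Tumours of the 2 flanks of 1 mouse also differed. Over the 13 mice with 2 tumours, the median absolute difference of log2(FPKM + 0.5) between flanks was 0.51 for Clec4d, 0.58 for Csf3r, 0.52 for Csf1, 0.67 for Cxcl5, 0.51 for S100a8 and 0.42 for S100a9. The SD between mice within a group was 0.74 for Clec4d, 0.51 for Csf3r, 0.39 for Csf1, 0.55 for Cxcl5, 0.67 for S100a8 and 0.71 for S100a9. A difference between 2 tumours and an SD of mouse means are unlike measures, so their sizes are not ranked against each other here. The widest gaps were in ESK981 mouse 1 for S100a9 (3.19 FPKM on the right and 0.154 FPKM on the left), in vehicle mouse 1 for S100a8 (2.76 FPKM on the right and 0.167 FPKM on the left) and in combination mouse 1 for Clec4d (5.68 FPKM on the right and 0.808 FPKM on the left). The right tumour had more Clec4d in 5 of 13 mice, more Csf3r in 7, more Csf1 in 8, more Cxcl2 in 10 and more Cxcr2 in 11.

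The wider chemokine and growth factor pathway, 28 listed genes none of which is among the 10, had more genes that fell than rose with ESK981. Against vehicle, 21 were tested, with a median log2 fold change of −0.85 against 0.11 over all genes. Of these, 9 fell and 1 rose, where 5.43% of all genes tested were called lower and 14.4% in either direction. Those with the smallest adjusted p were Ltb4r1, the leukotriene B4 receptor (log2 fold change −1.17 ± 0.22, limma adjusted p = 0.00369), Csf2ra, the GM-CSF receptor alpha chain (−1.84 ± 0.35, 0.00381), the chemokine Ccl3 (−1.68 ± 0.33, 0.00418), Il1rn, the interleukin-1 receptor antagonist (−1.37 ± 0.29, 0.00720), and Il1b (−1.38 ± 0.32, 0.00981). Il1b, a cytokine that induces CXC chemokines, averaged 0.228 ± 0.0896 FPKM with ESK981 and 1.7 ± 1.22 FPKM with vehicle. The stromal chemokine Cxcl12 was at 0.745 ± 0.198 FPKM with ESK981 and 2.07 ± 1.51 FPKM with vehicle and did not pass (−0.85 ± 0.30, adjusted p = 0.0580). Csf2, the GM-CSF gene, had at most 4 fragments in a tumour. No gene of this list was called in the other comparisons.

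Of 44 listed granule, effector and lineage genes, 22 were tested, 11 fell and 1 rose in ESK981 against vehicle, with a median log2 fold change of −0.89. Over all genes tested, 5.43% were called lower and 14.4% in either direction. The 5 with the smallest adjusted p were the transcription factor Cebpb (−1.36 ± 0.22, limma adjusted p = 0.00139), the integrin beta chain Itgb2 (−1.96 ± 0.33, 0.00193), the transcription factor Spi1, which encodes PU.1 (−1.36 ± 0.25, 0.00324), and the NADPH oxidase subunits Cyba (−1.74 ± 0.33, 0.00381) and Ncf4 (−1.46 ± 0.28, 0.00381). These genes are shared with macrophages and other myeloid cells. The 22 genes of this list that did not pass the filter include the neutrophil genes Ly6g, Mpo and Retnlg described above. Of 9 listed genes for adhesion to vessels, 6 were tested and Icam1, a ligand of leukocyte integrins, fell (−1.32 ± 0.31, adjusted p = 0.0114). None of these genes was called in the other comparisons. The part of the flow cell in the calls of these pathway lists was not tested.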

How the data were processed

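The deposited table holds FPKM per gene and tumour, made by the authors with STAR and featureCounts on mm10, per the submitters' processing notes. Tool versions, annotation and strand use were not given in the sources used here, so fragments of overlapping or antisense genes are uncertain. FPKM multiplied by the GENCODE M21 exon length gave whole fragments for 100% of low values (within 0.01), from which fragments per gene and tumour were taken. All value columns matched a sample (0 unmatched).

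The mouse was the replicate: log2(FPKM + 0.5) was averaged over the tumours of a mouse, given by ear tag, so fold changes of low genes are understated. A model with 4 groups was fitted in limma 3.58.1 (R 4.3.3) with a mean-variance trend, giving 16 residual and 5.07 prior degrees of freedom, on the 15846 genes with at least 0.5 FPKM in at least 5 tumours, two-sided, with Benjamini-Hochberg adjustment over all of them. Calls needed an adjusted p under 0.05. The code was tested on simulated data. Correlations used 100000 permutations in Python 3.11.15. None of the 528 pairs of libraries agreed within sampling noise (chi-square per degree of freedom at least 5.37).

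The 10 genes and all gene lists were chosen with earlier results of these data known. The genes named are the 10, up to 5 called genes per pathway list with the smallest adjusted p, Ly6g, Mpo, Retnlg, Csf3, Csf1r, Il1b, Il17a, Cxcr1, Cxcl12 and Csf2 whatever their result, and the 3 genes most correlated with each of the 10 that was tested. Further marker lists (dendritic, mast, T cell, eosinophil, fibroblast, endothelial, keratinocyte, red blood cell, tumour epithelium) served as checks.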

Additional observations from a re-analysis of the deposited data

Results flagged for a closer look

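In 40 sets of 5 mouse means (10 genes in 4 groups), 2 mice lay far from the others of their group; chance alone gives such a gap in about 1 of 20 sets. Clec4d in ESK981 mouse 3 was at 0.667 FPKM, against 1.40 to 1.5 FPKM in the other 4 mice, a gap of 0.925 of the range. S100a9 in combination mouse 4 was at 2.58 FPKM, against 0.0399 to 0.214 FPKM in the others. On the same log2 scale this gap was 0.833 of the range. Both tumours of that mouse were high (18 fragments on the left and 41 on the right).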

How the results depend on the processing

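For single genes under the limma alternatives, the 3 called genes gave 102 recomputed values, of which 86 kept the call and 16 lost it, 1 of these with a change of sign. Genes not called gave 1773 recomputed values, of which 14 gained a call and 53 changed sign without a call. In ESK981 minus vehicle, 3 genes were called, with 1 under no filter on low values, 1 with the right flank only and 0 with a flow cell term, where Csf3r reversed to 0.15 (adjusted p = 0.839). Leaving out each mouse in turn gave 1 to 4 calls, with the lowest value without vehicle mouse 2 or 3. Csf1 passed in 32 of 34 settings, Clec4d in 30 and Csf3r in 24. The genes lost without the filter were Clec4d (adjusted limma p = 0.0537) and Csf3r (0.0816). More genes are tested in that setting, and the SE rose to 0.44 for Clec4d and 0.31 for Csf3r. The cause of the lost calls was not tested.

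In ESK981 minus anti-PD-1, 0 genes were called, with 1 under median-of-ratios scaling, 3 with only these 2 groups fitted, 2 without the 3 tumours of extreme RNA composition (combination 5R, anti-PD-1 4R, vehicle 5R), and 0 to 1 when each mouse was left out. No cut-off or per-tumour value of RNA composition is given here for setting these 3 tumours apart. Over all genes, ESK981 minus vehicle gave 1418 higher and 860 lower calls. It gave 2112 and 2277 under median-of-ratios scaling, 5167 and 814 under common-sum scaling, and 5554 and 232 with the flow cell term.

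Fragment numbers limit Cxcl3, Cxcr2, S100a8 and S100a9 most. No paired analysis was possible because mouse numbers were given here in label order and pair nothing across groups. Mice are the replicates, and nothing in the labels says whether RNA was prepared in batches.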

Other observations

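Other marker lists also differed between ESK981 and vehicle. In that comparison, 5.43% of all genes tested were called lower and 14.4% in either direction. The part of the flow cell in the calls below was not tested. The summed FPKM of 8 T cell markers was 1.95 ± 0.684 in ESK981 mice, 6.47 ± 4.17 in combination mice, 5.94 ± 1.49 in anti-PD-1 mice and 7.57 ± 2.30 in vehicle mice (SD, n = 5 each), and 4 of 7 tested were called lower with ESK981 against vehicle. Of 8 fibroblast markers, 7 were tested and 5 were called lower, with sums of 46.4 ± 6.13 in ESK981 mice and 199 ± 171 in vehicle mice. Of 8 dendritic cell markers, 2 were tested and both were called lower. Of 8 endothelial markers, 6 were tested and 2 were called higher, with sums of 8.41 ± 1.55 in ESK981 mice and 5.11 ± 1.90 in vehicle mice.

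No call was made among 8 mast cell and basophil markers (5 tested; sums of 5.33 ± 0.496 in ESK981 mice and 11.5 ± 4.45 in vehicle mice) or 10 keratinocyte markers (3 tested). The 5 eosinophil markers had none tested, with a summed FPKM of at most 0.138 in ESK981 mice and 0.0644 in vehicle mice. Among 5 red blood cell markers, 3 were tested and 1 was called higher (sums of 34.3 ± 22.3 in ESK981 mice and 10.3 ± 1.61 in vehicle mice), and among 8 tumour epithelium markers 4 were tested and 1 was called higher.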
